A study of Mus musculus with 2 samples.

Results

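The 29 genes described here are Hox genes of the mouse that lie outside the part of the family best known for building the limb. They are all 10 HoxB genes, all 9 HoxC genes, and the HoxA and HoxD genes of paralogous groups 1 to 8 named below. They were chosen by gene symbol, not by their values, and all 29 were found among the 43346 Ensembl genes of both gene tables. Total RNA of mouse limb at embryonic day 14.5 had been sequenced in 2 libraries, the only group of the study, labelled as biological replicates 1 and 2. The strain was B6NCrl, with no engineered allele and no treatment named. Each sample was the 4 limbs of a pup, so forelimb and hindlimb were pooled, and the sex was given as pooled male and female. The labels give a common donor identifier, pup 1 and pregnancy 2 for both, but different collection days. They do not say how a pooled sex goes with 1 pup. The kind of replicate is thus unclear, and the spread between the libraries may be technical, biological or both. The input was 10 ng of RNA above 200 nt, to which spike-in RNAs had been added.

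Hox genes code for transcription factors that bind DNA through a homeodomain, which is encoded by a stretch of 180 bases called the homeobox. They lie in 4 clusters, and the order of the genes along a cluster follows the order in which they are switched on along the body axis. Genes at the same place in different clusters are paralogs and share a group number, with low numbers acting towards the head and high numbers towards the tail. In the limb, the HoxA and HoxD genes of groups 9 to 13 are known for patterning upper arm, forearm and digits. HoxC genes are known from the hindlimb, the skin and its appendages, and HoxB genes from the hindbrain, neck, trunk and blood.

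Paralogs can differ widely in level although their homeoboxes are alike, and the homeoboxes of 2 such groups are shown because their members include the highest and the lowest levels described below. The sequences are from the GENCODE M21 transcripts of the mouse reference GRCm38, 5′ to 3′ on the transcript, and capitals mark bases that differ from the first gene of each group. In group 8, Hoxb8 differed from Hoxd8 at 35 of 180 bases (80.6% identity) and Hoxc8 at 48 (73.3%). In group 13, Hoxb13 differed from Hoxc13 at 47 bases (73.9%).
Hoxd8: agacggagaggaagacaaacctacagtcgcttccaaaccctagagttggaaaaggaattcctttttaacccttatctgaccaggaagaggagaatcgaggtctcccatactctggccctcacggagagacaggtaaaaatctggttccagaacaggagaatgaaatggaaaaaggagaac
Hoxb8: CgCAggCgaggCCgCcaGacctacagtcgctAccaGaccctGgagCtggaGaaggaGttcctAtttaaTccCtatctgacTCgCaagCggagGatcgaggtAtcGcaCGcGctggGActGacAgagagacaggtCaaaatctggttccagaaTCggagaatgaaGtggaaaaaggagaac
Hoxc8: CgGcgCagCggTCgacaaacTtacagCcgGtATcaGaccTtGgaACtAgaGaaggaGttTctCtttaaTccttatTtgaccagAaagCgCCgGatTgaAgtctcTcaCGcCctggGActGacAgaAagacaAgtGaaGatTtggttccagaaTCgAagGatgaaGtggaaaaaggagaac
Hoxc13: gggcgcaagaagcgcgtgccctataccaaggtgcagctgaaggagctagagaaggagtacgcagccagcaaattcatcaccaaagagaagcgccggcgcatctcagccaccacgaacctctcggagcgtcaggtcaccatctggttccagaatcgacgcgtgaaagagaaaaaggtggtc
Hoxb13: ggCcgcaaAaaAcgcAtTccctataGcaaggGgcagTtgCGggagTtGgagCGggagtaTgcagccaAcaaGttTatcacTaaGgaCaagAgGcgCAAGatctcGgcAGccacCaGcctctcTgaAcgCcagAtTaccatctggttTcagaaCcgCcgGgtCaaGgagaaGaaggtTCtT

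A homeobox was found in 29 of 29 genes. Identity had a median of 82.2% over the 23 pairs within a paralogous group (72.8 to 93.9%). It had a median of 63.1% over the 102 pairs within a cluster but of different groups, and 62.2% over the other 281 pairs. The longest stretch of identical bases between any pair of homeoboxes was 52 bases. The deposited effective lengths equal the length less 99, as for fragments of 100 nt, and no 100-nt window was shared between genes of different clusters.

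**Figure D1:**
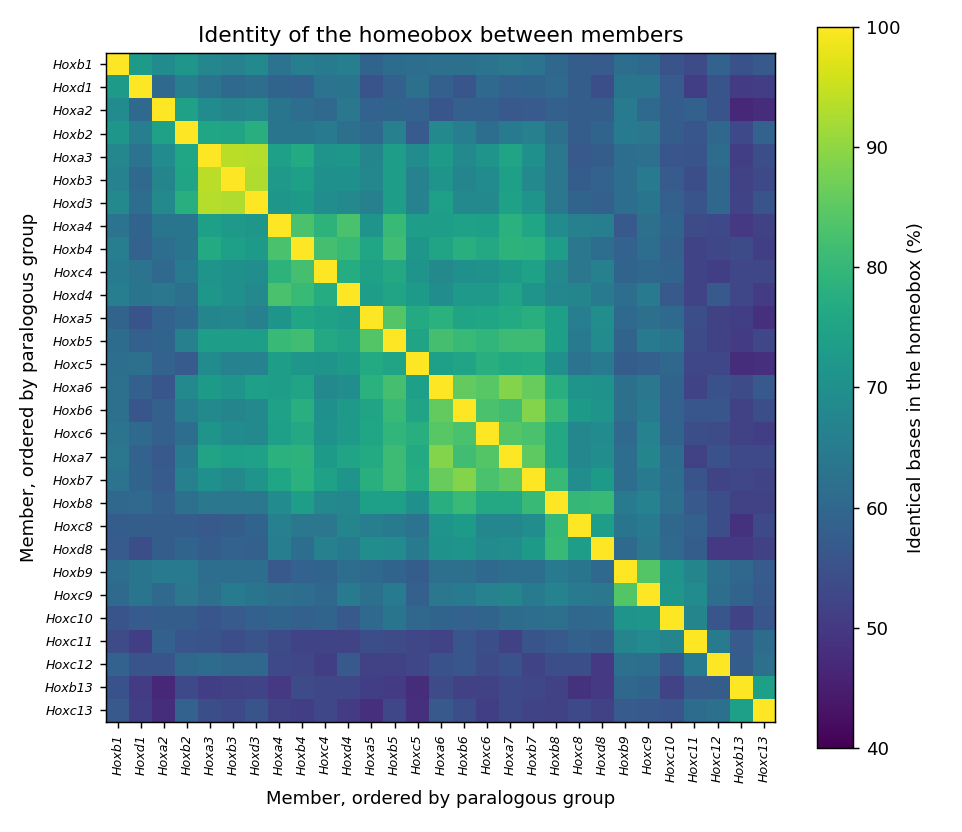
Identical bases in the 180-base homeobox (%), for each pair of the 29 genes, ordered by paralogous group on both axes. Squares of high identity lie along the diagonal, where the pairs of the same group stand, with a median of 82.2%.

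Windows of 100 nt were also compared across 101510 annotated transcripts, since reads that fall in a shared window cannot be assigned with certainty. For 18 of 29 genes no window was shared with another gene, and for 23 none was shared on the same strand. Hoxd3 shared 57.9% of its windows, mostly with Gm28230 and Hoxd4, and Hoxd4 shared 41.1%. Hoxb3 shared 49.7% and Hoxb2 24.5% with Hoxb3os on the opposite strand, Hoxa3 shared 20.7% and Hoxa7 17.0%, the latter with Hoxaas3 on the opposite strand. The sources used here do not say whether the counting used strand, so the levels of these genes and of their antisense neighbours carry that uncertainty. Those neighbours stood at 0.705 ± 0.0636 TPM (Hoxb3os), 3.52 ± 0.537 TPM (Hoxaas3) and 5.34 ± 0.608 TPM (Hoxd3os1, which overlaps Hoxd3 and Hoxd4; SD, n = 2). TPM (the deposited abundance unit) is a gene's share of all transcripts, corrected for length.

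Of the 29 genes, 13 are in the RefSeq promoter table of GRCm38.p6, which gives 250 bases before to 50 after a gene's start. The promoters of Hoxd8, the gene of highest level, and of Hoxb1, 1 of the pair of lowest level, are shown to set the extremes side by side. Capitals mark matches to TGATNNAT, a form of the joint site of Hox and Pbx proteins, or to TATAAA, on either strand. Hoxd8 is the 300 bases at chr2:74704365-74704664 and Hoxb1 those at chr11:96365508-96365807, both on the plus strand.
Hoxd8: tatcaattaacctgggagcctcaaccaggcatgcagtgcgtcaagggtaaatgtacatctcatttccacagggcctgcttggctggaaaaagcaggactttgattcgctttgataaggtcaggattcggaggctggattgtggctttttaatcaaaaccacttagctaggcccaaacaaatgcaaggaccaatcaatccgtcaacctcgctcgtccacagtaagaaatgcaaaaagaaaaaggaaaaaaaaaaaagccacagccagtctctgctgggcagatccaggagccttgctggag
Hoxb1: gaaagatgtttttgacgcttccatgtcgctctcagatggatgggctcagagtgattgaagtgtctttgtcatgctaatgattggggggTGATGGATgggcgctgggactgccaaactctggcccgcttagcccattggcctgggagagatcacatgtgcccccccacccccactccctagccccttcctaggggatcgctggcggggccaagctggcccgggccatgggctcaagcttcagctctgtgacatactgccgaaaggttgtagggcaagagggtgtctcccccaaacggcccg

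The letters TGATNNAT were found in 3 of the 13 promoters (23.1%; Hoxa2, Hoxb1 and Hoxb8) and in 8.85% of all 32851 promoters in the table. TATAAA was found in 2 of 13 (15.4%; Hoxb8 and Hoxd4) and in 13.6% of all. Neither was in the Hoxd8 window. That window covers the start of the minor transcript Hoxd8-203 (0.44 and 0 TPM). The leading transcript Hoxd8-201, with 89.7% and 96.2% of the gene's TPM, starts at 74704905, outside the window. The bases before that start were not examined. Median GC content was 58.0% over the 13 and 52.7% over all, and the median ratio of observed to expected CpG was 0.593 and 0.384. No methylation or binding was measured in these samples, and nothing about a factor follows from such matches.

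The libraries held 34193161 and 32879425 expected counts, of which 5.29% and 5.20% were spike-in counts. The tissue label was checked against 8 limb mesenchyme markers (Prrx1, Prrx2, Msx1, Tbx5, Tbx4, Pitx1, Lmx1b and Hand2). All 8 passed 1 TPM in each library, with a sum of 341 TPM in replicate 1 and of 434 TPM in replicate 2. Both Tbx5, a forelimb gene, and Pitx1 and Tbx4, hindlimb genes, were present. Markers of tissues where Hox genes of the trunk are known to be active were present in part. Of 10 neural markers 3 reached 1 TPM in both libraries and Mnx1 and Neurod1 were among those at 0 in both, with sums of 11.1 and 9.75 TPM. Of 5 markers each, 2 of axial skeleton and tail (sums 7.44 and 8.09 TPM), 1 of kidney (sums 6.11 and 11.7 TPM) and 1 of gut (sums 6.71 and 7.81 TPM) reached 1 TPM in both. The highest were the neuronal Stmn2 at 6.96 and 5.62 TPM, the kidney marker Six2 at 5.90 and 11.1 TPM and the gut marker Sox17 at 6.53 and 7.54 TPM. These 3 stood in the range of the highest of the 29 Hox genes. Epidermis was well represented, with 5 of 5 markers and sums of 1167 and 1008 TPM.

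Of the 29 genes, 14 were detected, which here means a level of at least 1 TPM in each library. Of all 43346 genes, 14739 were. A further gene, Hoxc9, reached 1 TPM in 1 library, and 14 reached it in neither. Their summed levels were 61.6 and 54.2 TPM in replicates 1 and 2, a mean of 57.9 ± 5.18 TPM (SD, n = 2). That was 16.2 ± 3.60% of the sum of these 29 genes and the 9 HoxA and HoxD genes of groups 9 to 13, which stood at 266.9 and 343.2 TPM. Within the 29 genes, which leave out those 9, the HoxC genes had the largest sum, 23.1 and 22.5 TPM, and the HoxB genes the smallest mean sum, 10.9 and 6.76 TPM. The 6 HoxA genes summed to 16.4 and 14.7 TPM and the 4 HoxD genes to 11.1 and 10.4 TPM. HoxC also had 8 of 9 genes detected, HoxB 2 of 10, HoxA 3 of 6 and the HoxD genes 1 of 4.

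**Figure D2:**
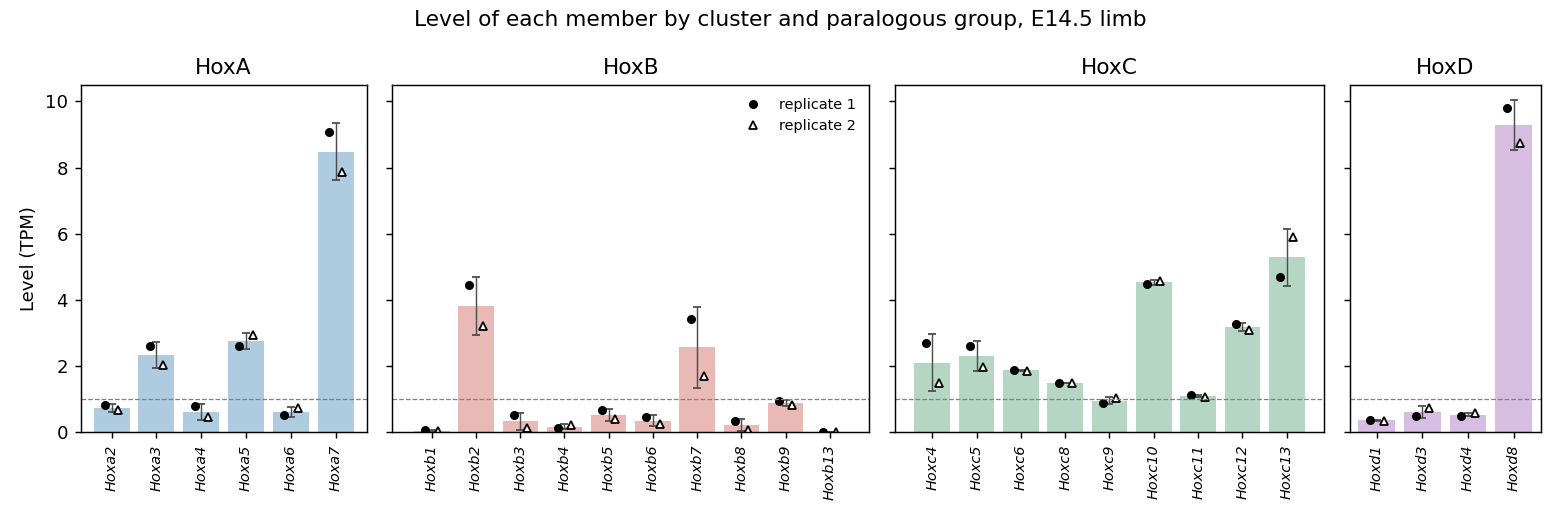
Level in TPM (vertical axis, linear) of each of the 29 genes, by cluster and in order of paralogous group; bars are means, error bars the SD over 2 libraries, circles replicate 1, triangles replicate 2 and the dashed line 1 TPM. Hoxd8 and Hoxa7 stand highest at 9.28 and 8.48 TPM, Hoxc13 and Hoxc10 follow, and 8 of 10 HoxB genes lie below the line in both libraries.

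Hoxd8, the neighbour of the HoxD genes known for limb patterning, was the highest (mm10, chromosome 2, 74704615 to 74707933, plus strand). Its level was 9.81 TPM in the first library and 8.74 TPM in the other, from 539 counts (exact Poisson 95% interval 494 to 586) and 469 counts (428 to 513). Replicate 1 was the higher, and the difference did not pass the test between libraries described below (log2 ratio -0.18, 95% interval -0.36 to 0.0014). The remaining HoxD genes were low. Hoxd1, known from sensory neurons, stood at 0.37 and 0.34 TPM, and Hoxd4, a hindbrain gene, at 0.49 and 0.56 TPM. Hoxd3, known for shaping the first neck vertebrae, stood at 0.47 and 0.73 TPM, but its expected counts went the other way, from 30.5 to 23.2. A 415-nt transcript, Hoxd3-205, was given 0% of the gene's TPM in replicate 1 and 53.4% in replicate 2 from 2.64 counts, while the main coding transcript Hoxd3-203 stood at 0.34 and 0.32 TPM.

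Among the HoxA genes, Hoxa7 led (chromosome 6, 52214491 to 52221854, minus strand), the gene next to the HoxA genes of groups 9 to 13. It stood at 9.09 and 7.87 TPM, and the ranges of Hoxd8 and Hoxa7 over the libraries overlapped. Hoxa5, known for lung and for the boundary of neck and thorax, stood at 2.59 and 2.93 TPM. Hoxa3, a gene of the throat pouches that form thymus and parathyroid, stood at 2.60 and 2.04 TPM. These 3 were the detected HoxA genes, and Hoxa7 lay well above the other two in each library.

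The other HoxA genes lay below 1 TPM in both libraries. Hoxa2, which patterns the second pharyngeal arch, stood at 0.82 and 0.65 TPM. Hoxa4, a neck vertebra gene, stood at 0.78 and 0.44 TPM, and Hoxa6 at 0.51 and 0.72 TPM from 9 and 12 counts. Their ranges over the libraries overlapped, so no order among them was seen.

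In the HoxC cluster (chromosome 15, 102921103 to 103036852, plus strand) levels were highest at the end of the high group numbers. Hoxc13, known for hair and nail, stood at 4.68 and 5.90 TPM. Hoxc10, a hindlimb and lumbar gene, stood at 4.48 and 4.58 TPM. Hoxc12 stood at 3.27 and 3.10 TPM. Hoxc11, the neighbour between Hoxc10 and Hoxc12 and likewise a hindlimb gene, was lower, at 1.11 and 1.07 TPM. Both libraries thus gave the same dip in the row of 4 genes, with Hoxc11 below its 2 neighbours by more than the spread between libraries.

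The 4 HoxC genes of groups 10 to 13 summed to 13.5 and 14.7 TPM, a mean of 14.1 ± 0.785 TPM. The 3 genes of groups 4 to 6 summed to 7.19 and 5.30 TPM, a mean of 6.25 ± 1.34 TPM, and Hoxc8 and Hoxc9 to 2.35 and 2.50 TPM. Within the low group numbers, Hoxc4 stood at 2.70 and 1.48 TPM and Hoxc5 at 2.61 and 1.97 TPM, both neck and brachial genes. Hoxc6, which marks the trunk at forelimb level, stood at 1.88 and 1.85 TPM. Hoxc8 and Hoxc9, genes of the thorax, stood at 1.47 and 1.48 TPM and at 0.88 and 1.02 TPM. By mean level the cluster ran from high at groups 10 to 13, apart from Hoxc11, through a low at groups 8 and 9 to a middle level at groups 4 to 6. The last rise did not hold for each gene in both libraries, as Hoxc4 and Hoxc8 were both at 1.48 TPM in replicate 2.

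Beside Hoxc13, the markers of hair and nail matrix were present in part. Of 8 listed genes 7 were found in the tables and 4 (Lef1, Dlx3, Krt35 and Foxn1) were detected. The list summed to 50.1 and 55.1 TPM, most of it from Lef1 (31.7 and 35.4 TPM) and Dlx3 (11.0 and 12.5 TPM). Krt35 stood at 5.40 and 5.52 TPM and Foxn1 at 1.48 and 1.51 TPM. Krt31, Krt33a and Krt86 were below 1 TPM. In whole limbs, fewer cells of a type and less RNA per cell cannot be told apart.

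The HoxB cluster (chromosome 11, 96194316 to 96368256, plus strand) had the smallest mean sum of the 4 sets although it has the most genes. Hoxb2, known from the hindbrain, led at 4.44 and 3.20 TPM, and Hoxb7, a trunk gene, followed at 3.42 and 1.70 TPM. Both were lower in replicate 2. Hoxb9, known from the thorax, stood at 0.95 and 0.81 TPM, just under the 1 TPM mark in both libraries.

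The other HoxB genes were lower still. Hoxb5, known for the position of the shoulder, stood at 0.65 and 0.39 TPM, and Hoxb3 at 0.51 and 0.13 TPM. Hoxb6, a gene of the early flank, stood at 0.46 and 0.23 TPM. Hoxb8, known for its ability to induce a second posterior organiser when forced on in the forelimb bud, stood at 0.33 and 0.07 TPM from 12 and 4 counts. Hoxb4, known from blood stem cells, stood at 0.12 and 0.21 TPM from 7 and 11 counts. At these counts the intervals were wide, 1.09 to 10.2 counts for Hoxb8 in replicate 2.

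Hoxb1, the gene of the hindbrain segment that forms the facial nerve, had 2 counts in replicate 1 and 1 in replicate 2 (0.06 and 0.02 TPM). Hoxb13, known from tail and prostate, had a count of 0 in both libraries. A count of 0 allows up to 3 counts, which is 0.0619 TPM in replicate 1 and 0.0663 TPM in replicate 2 for a gene of this length. This is a one-sided 95% limit, and the two-sided exact interval used for the other genes reaches 3.69 counts. No molecular identifiers were recorded, so limits and intervals cover counting error only.

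Summed by paralogous group over the 29 genes alone, without the HoxA and HoxD genes of groups 9 to 13, the levels were highest for groups 7 (11.0 ± 2.08 TPM) and 8 (11.0 ± 0.933 TPM), carried by Hoxa7 and Hoxd8. Group 1 was the lowest of these sums, at 0.395 ± 0.0495 TPM. Paralogs stood at different levels. Hoxd8 stood at 9.28 ± 0.757 TPM and its paralog Hoxb8 at 0.200 ± 0.184 TPM. Hoxa7 stood at 8.48 ± 0.863 TPM and Hoxb7 at 2.56 ± 1.22 TPM. Hoxc13 stood at 5.29 ± 0.863 TPM and Hoxb13 at 0.

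In the order of levels a step was counted where every gene above it exceeded every gene below it in both libraries. Steps stood below Hoxa7, Hoxc13, Hoxc10, Hoxc8 and Hoxc11 among the detected genes. Hoxb2 and Hoxc12 overlapped, Hoxb7 spanned the range of Hoxc12, and overlap was also seen in each neighbouring pair in the run from Hoxa5 through Hoxb7, Hoxa3, Hoxc5 and Hoxc4 to Hoxc6. Further down, the steps were those under Hoxb4 and Hoxb1. With 2 libraries, ranges that stay apart are a description and no test. Even Hoxd8 was not an abundant RNA in this tissue: it lay above 35.9% of the 14739 genes detected in both libraries, whose median was 16.3 TPM.

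The question of whether the libraries differ in these genes was put to an exact binomial test on the counts, two-sided, with TMM-scaled library sizes and Benjamini-Hochberg adjustment over all 19153 genes with 10 or more counts in sum. This test compares the 2 libraries, not conditions, has no replicate check and covers counting error only. Of the 29 genes 27 had enough counts, and Hoxb1 and Hoxb13 had not. Lower in replicate 2 were 6 of 27 genes, where the background over all genes tested was 14.8% lower. Higher were 0 of 27, where the background was 12.7% higher. At an unadjusted p under 0.05 in this test, 7 of the 27 were lower and 1, Hoxc13, was higher. Over all 19153 genes tested, 3739 were lower and 3397 higher at that unadjusted mark. The log2 ratio was below 0 for 22 genes and above 0 for 5, with a median of -0.30, beside -0.000806 over all genes tested. The background of 12.7% higher and 14.8% lower became 17.4% and 11.7% with total counts as the scaling and 21.8% and 9.77% with spike-in counts.

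Hoxb7 differed most firmly, with 90 counts in replicate 1 and 40 in replicate 2. Its log2 ratio was -1.15 (95% interval -1.72 to -0.60, adjusted p = 0.00015 by the exact binomial test). Hoxb7 was also the only gene of the 27 beyond the 95th percentile of the 500 genes nearest in count, 0.92. A small share of genes lies beyond such a percentile by definition, so a single gene of 27 there is no excess. Hoxc4 had 118 and 60 counts, a log2 ratio of -0.95 (-1.43 to -0.49, adjusted p = 0.000226 by the same exact test). Hoxb3, with 28.2 and 8.74 counts, had the lowest log2 ratio of the 27, -1.62, with a wide interval of -2.88 to -0.49. Its overlapping antisense RNA Hoxb3os stood at 0.75 and 0.66 TPM, and Hoxb3 was not tested where 50 counts were required.

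Hoxb2 (log2 ratio -0.50), Hoxc5 (-0.56) and Hoxa3 (-0.47) were also called lower. The call of Hoxa3, the weakest at adjusted p = 0.0446 in the exact binomial test, was lost with total counts or spike-in counts as the scaling, with no count filter and with posterior mean counts. By cluster, 3 of 8 HoxB genes tested were lower, 2 of 9 HoxC, 1 of 6 HoxA and 0 of 4 HoxD. The share over all genes tested was 14.8%. The lowest median log2 ratio was that of HoxB, -0.99, against -0.12 in HoxC. Neither the difference between clusters nor that of the HoxB sum (10.9 and 6.76 TPM) was tested.

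**Figure D3:**
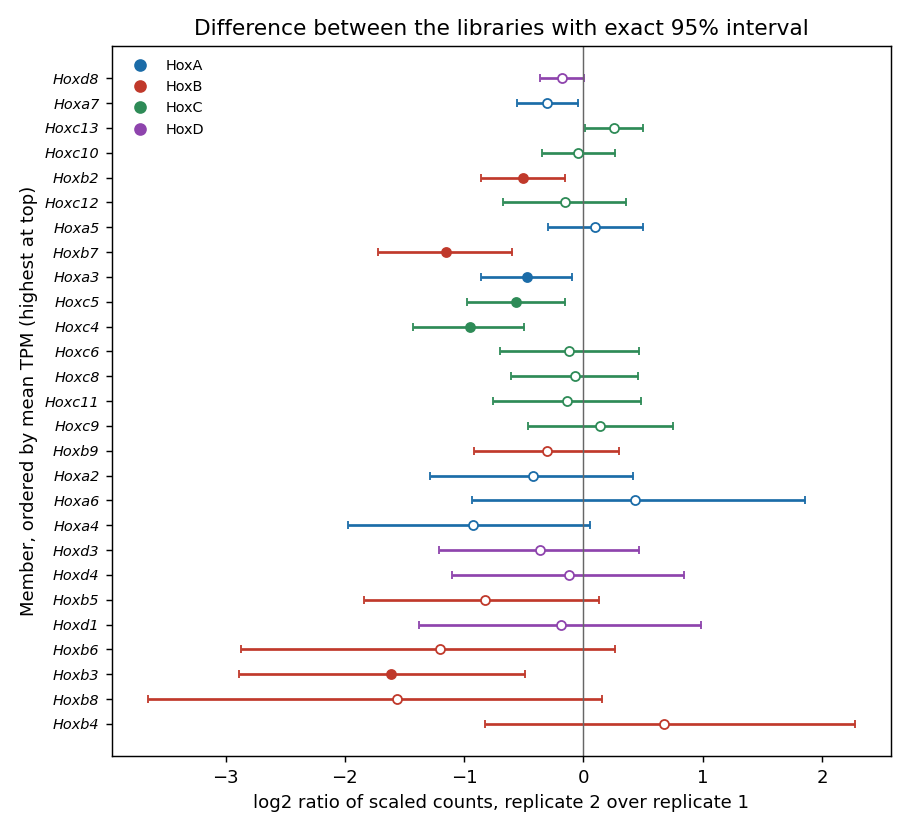
Ratio of scaled counts between the libraries (log2, replicate 2 over replicate 1; horizontal axis) for the 27 genes tested, ordered by mean level, with exact 95% binomial intervals; filled points are called lower, and colours give the cluster. The filled points are Hoxb2, Hoxb7, Hoxa3, Hoxc5, Hoxc4 and Hoxb3, all to the left of 0, and the intervals widen towards the low genes at the bottom.

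With the spread between libraries of the typical gene included, no call was left. In edgeR, an exact test with 1 common dispersion (biological coefficient of variation 0.0992) called 0 of the 22 genes that passed its filter, and 2 had an unadjusted p under 0.05. The background of this test was 113 of 16920 genes called, 0.668%, and 1120 of 16920 at an unadjusted p under 0.05. Its dispersion was estimated from the same 2 libraries taken as 1 group, so it already holds the difference under test. The lack of calls therefore does not show that the libraries agree in these genes. Hoxb7 had an adjusted p of 0.0798 in edgeR's exact test and Hoxc4 one of 0.144.

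The HoxA and HoxD genes of groups 9 to 13 went the other way in the same libraries. Of these 9 genes 7 were higher in replicate 2 and 0 lower by the exact binomial test. Over all genes tested 12.7% were higher and 14.8% lower. The median log2 ratio of the 9 was 0.29, and the lone gene below 0 was Hoxd9 (-0.28). By edgeR's exact test 0 of 9 were called, with 3 at an unadjusted p under 0.05. Over all 16920 genes in that test, 113 were called and 1120 had an unadjusted p under 0.05. Markers of other cells moved between the libraries too. By the exact binomial test all 8 limb mesenchyme markers were higher in replicate 2. All 5 epidermal markers (1167 and 1008 TPM) and all 4 red cell markers (10004 and 6486 TPM) were lower by that test. edgeR's exact test called 0 of the 8 mesenchyme, 0 of the 5 epidermal and 2 of the 4 red cell markers. Of the 5 kidney markers Six2 was higher in replicate 2 (log2 ratio 0.82, adjusted p = 8.9e-13 by the exact binomial test, 0.0554 by edgeR's). Of 4 leukocyte markers 1 was lower, and of the 10 neural markers 0 of 4 tested were called. The part of these cell types in the Hox values was not tested.

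**Figure D4:**
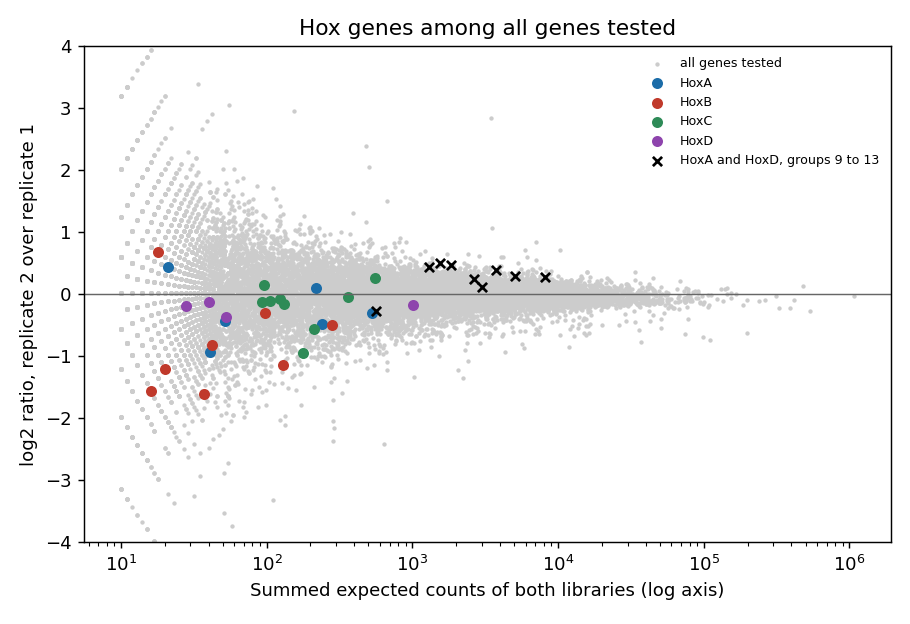
Log2 ratio between the libraries (replicate 2 over replicate 1; vertical axis) against the summed expected counts (horizontal, log axis) for all genes tested in grey, the 27 genes in the colours of their clusters and the 9 HoxA and HoxD genes of groups 9 to 13 as crosses; 6 genes lie outside the axis. Most coloured points lie below 0 at low counts, where the grey points spread widely, and 8 of 9 crosses lie above 0.

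Of 27 partners and regulators of Hox proteins, 23 were detected in both libraries. The highest were Rarg, a retinoic acid receptor that acts on Hox genes, at 97.2 ± 12.8 TPM, the Polycomb gene Rnf2 at 81.3 ± 1.35 TPM and Gmnn at 62.3 ± 2.84 TPM. Cdx2, an activator of trunk Hox genes in the early embryo, was at 0 in both libraries. Of the 24 tested 7 were higher in replicate 2 and 2, Gmnn and Meis1, were lower by the exact binomial test. The shares over all genes tested were 12.7% higher and 14.8% lower. By edgeR's exact test 0 of 24 were called and 1 had an unadjusted p under 0.05, beside 113 and 1120 of all 16920 genes in that test.

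Transcripts of the detected genes were led by the same model in both libraries. Of the 14 genes 5 have 1 annotated transcript, and in 9 of 9 with several the leading transcript was the same. Its share of the gene's TPM ranged from 51.1 to 93.3% with a median of 73.4%. Hoxc4, Hoxd8, Hoxb7 and Hoxb2 were led by 1 coding transcript with over 90% of TPM as a mean of both libraries.

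Hoxa7 was the most divided. Its leading transcript, Hoxa7-205, is annotated as a target of nonsense-mediated decay and held 53.6% and 48.5% of the gene's TPM. The coding transcript Hoxa7-203 held 25.9% and 23.9%. In Hoxc8 a retained-intron transcript held 34.7% and 33.1%, and in Hoxa3 another held 21.6% and 27.3%. In Hoxc5 the 615-nt transcript Hoxc5-202, whose start lies within Hoxc10, held 31.0% and 36.0%, from 9.56 and 7.91 counts. In each of these 4 genes both libraries gave the same order of the transcripts named.

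**Figure D5:**
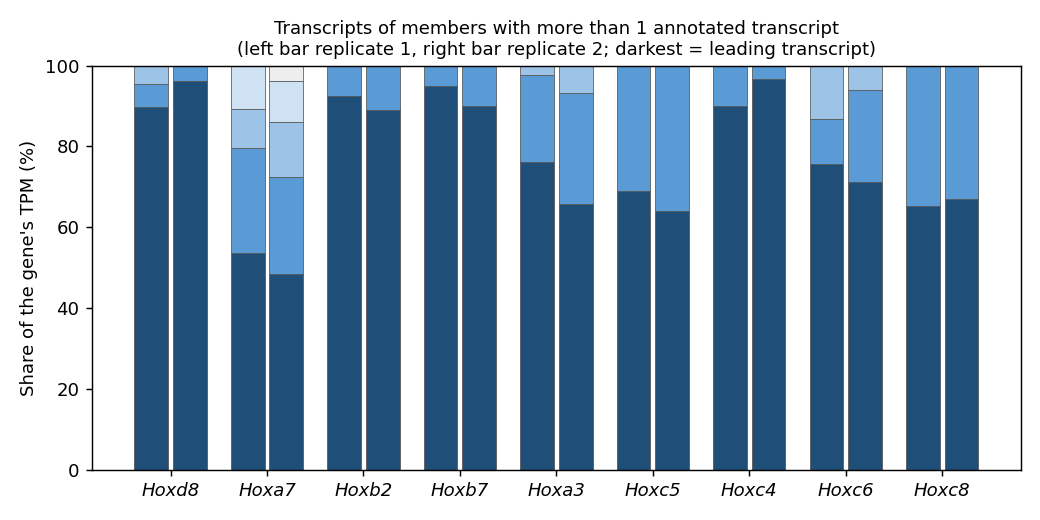
Share of each gene's TPM held by its transcripts (vertical axis, %) in the 9 detected genes with more than 1 annotated transcript; the left bar of each pair is replicate 1, the right bar replicate 2, and the darkest part is the leading transcript. Leading shares run from 51.1% in Hoxa7 to 93.3% in Hoxc4 as means over the libraries.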

How the data were processed

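RNA of E14.5 mouse limb was measured in 2 libraries. Per the notes deposited with the samples, the authors quantified each replicate from transcriptome alignments to mm10 with GENCODE M4. The aligner and quantifier are not given in sources used here. Per the file headers, the deposited values are expected counts (estimated reads, rounded for the tests), TPM and FPKM per gene and transcript, with effective lengths. Per the file headers, the authors also gave each transcript's percent of its gene; here that percent was recomputed from transcript TPM.

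Genes were named through the GENCODE M21 annotation (42462 of 43346 Ensembl IDs), and 97 spike-in and control rows and 26248 rows with numeric IDs (17 and 27 counts) were left out. No values were log-transformed before summing, so no pseudocount was used. Detection means 1 TPM in both libraries. The main test was an exact binomial test on counts (scipy 1.17.1) at an adjusted p of 0.05, and the second was edgeR 4.0.16 (R 4.3.3); DESeq2 1.42.0 gave size factors. The scripts were tested on simulated data. Other scalings, filters, TPM minimums and posterior mean values were tried as alternatives.

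The 29 genes, the marker lists and the list of Hox partners were chosen with earlier results of these data known. Named were all 29 genes, the 3 highest partners, overlapping RNAs and, beyond that rule and after their values were seen, Cdx2, Meis1, Hoxd9 and single marker genes. Homeoboxes were found by the letters that code for the core of the homeodomain's recognition helix, in the reading frame. Protein comparisons were not run. Some items are not reported here.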

Additional observations from a re-analysis of the deposited data

How the results depend on the processing

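The count of genes lower in replicate 2 was 6, stayed at 6 with DESeq2 size factors and was 5 with total counts, spike-in counts, no count filter, 50 counts in sum or posterior mean counts, while edgeR's exact test called 0. The count of genes higher was 0 except with spike-in counts, where it was 1 (Hoxc13). edgeR's 0 calls stayed at 0 with a count filter of 10 or tagwise dispersion. The 14 genes detected at 1 TPM became 18 at 0.5 TPM, 8 at 2 TPM, 2 at 5 TPM and 11 at an FPKM of 1. The HoxD sum of 10.8 TPM was 11.4 as posterior mean TPM, and 7 of 29 single levels moved by more than 1 SD on that scale, where Hoxd3 was 0.965 TPM and Hoxb1 0.130 TPM. That SD is of 2 libraries, so the count does not follow the size of the change. Hoxb3 went from 0.32 to 0.58 TPM within its wide SD, while Hoxc8 counted as moved from 1.475 to 1.485 TPM. The median share of the leading transcript, 73.4%, was 67.2% from posterior mean TPM and 86.0% from expected counts. Each library alone gave 14 to 15 genes detected, sums of 14.7 to 16.4 TPM (HoxA), 6.76 to 10.9 TPM (HoxB), 22.5 to 23.1 TPM (HoxC) and 10.4 to 11.1 TPM (HoxD), and leading shares of 71.2 to 76.1%. The HoxB sum without replicate 2 was 1.62 times that without replicate 1. No paired analysis was possible because there is 1 group. The libraries' difference has no left-out form. The causes of these changes were not tested. At this depth, 1 count of a transcript with 1 kb of effective length was worth 0.0435 TPM in replicate 1 and 0.0466 TPM in replicate 2, which limits the genes under about 10 counts.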
